A study of Mus musculus with 2 samples.

Results

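Metallothioneins and the carriers that move zinc were followed by RNA sequencing in the gastrocnemius, a calf muscle, of the mouse. The set holds 10 genes of the 34745 in the count table: the metallothioneins Mt1, Mt2 and Mt3, the metal-sensing factor Mtf1, the exporters Slc30a1 and Slc30a2, and the importers Slc39a1, Slc39a8, Slc39a10 and Slc39a14. They were chosen by name and function, with earlier results of these data known. All 10 were found by matching Ensembl gene identifiers to the symbols of GENCODE M21 on GRCm38. The 2 libraries came from C57BL/6 mice aged 8 weeks, 1 of genotype Cry2flox/flox (Cry2flox) and 1 of genotype Cry2scko. Cry2 encodes cryptochrome 2, which represses the circadian clock, and in a floxed gene the segment between loxP sites is deleted where Cre is present. What scko stands for, which promoter drives a Cre, at what hour muscle was taken and whether a library is 1 animal or a pool are not stated in the labels.

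With 1 library per genotype there is no measure of the spread between animals, so no p-value is given and each comparison describes this pair of libraries. Ratios are Cry2scko over Cry2flox. Intervals are exact 95% counting intervals and leave out variation between animals, and because reads from PCR without molecular identifiers are not independent molecules they can understate even the counting error. Levels across libraries are given as CPM, reads per 1e6 reads after TMM scaling of the library sizes, and levels across genes as the deposited FPKM, which divides by gene length. The 2-fold rule calls a gene when its mean CPM is at least 1, its ratio is 2-fold or more in either direction and its interval leaves out 1. Cry2 itself had 676 reads in Cry2flox against 133 in Cry2scko, at a log2 ratio of -2.16 (-2.44 to -1.89). Library totals were 18909433 reads for Cry2flox and 16423884 for Cry2scko. The muscle fibre markers Ckm, Acta1, Myh4, Myh1, Mylpf, Tnnt3, Pvalb and Atp2a1 summed to 149980 CPM (Cry2flox) and 144110 CPM (Cry2scko), and 0 of these 8 passed the rule.

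Metallothioneins are small proteins rich in cysteine that bind zinc and copper and buffer their free levels in the cell. Mtf1 encodes MTF-1, a zinc finger factor that binds metal response elements when free zinc increases and switches on Mt1, Mt2 and the exporter gene Slc30a1. Most carriers of the SLC30 family (ZnT) move zinc out of the cytosol, across the plasma membrane or into organelles. Carriers of the SLC39 family (ZIP) move it in. Exporter is used here for every SLC30 gene, whatever its membrane or direction. In muscle, Mt1 and Mt2 are also known as genes that respond to glucocorticoids and to wasting.

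The inducible metallothioneins Mt1 and Mt2 were both lower in the Cry2scko library, by a little under 2-fold. Slc39a10 was lower by a smaller factor. Mtf1, both exporters and the importers Slc39a1 and Slc39a14 had ratios near 1 and intervals that included 1. The widest of these intervals, that of Slc30a2, ran from -0.48 to 0.35 in log2. No member passed the 2-fold rule: of the 8 members past its level, 0 were called higher and 0 lower, against 4.88% of the 12832 genes compared (3.37% higher and 1.51% lower). Mt3, at a mean CPM of 0.860, and Slc39a8, at 0.698, lay under the level that the rule requires. The counting interval lay wholly below a ratio of 1 for 3 members (Mt1, Mt2 and Slc39a10) and wholly above it for 0, where 17.3% of all genes compared had an interval wholly below 1 and 16.3% one wholly above. The median log2 ratio of the 10 members was -0.05, and that of all 13898 genes at a mean CPM of at least 0.5 was -0.00.

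Mt1 (ENSMUSG00000031765, GRCm38 chromosome 8, 94179082 to 94180327, plus strand) had 343 reads in Cry2flox, or 18.3 CPM (95% interval 16.4 to 20.3), against 172 reads in Cry2scko, or 10.4 CPM (8.90 to 12.1). The counting intervals of these levels did not overlap. Mt1 was 1.75-fold lower in Cry2scko, a log2 ratio of -0.81 (-1.09 to -0.54), and 326 of the 12832 genes compared (2.54%) had a lower ratio. Mt2 (ENSMUSG00000031762, chromosome 8, 94172664 to 94173568, plus strand) had 255 reads in Cry2flox, or 13.6 CPM (11.96 to 15.4), against 123 reads in Cry2scko, or 7.44 CPM (6.18 to 8.87). Mt2 was 1.82-fold lower, a log2 ratio of -0.87 (-1.19 to -0.55), and 280 genes (2.18%) had a lower ratio. Both intervals reach past a log2 ratio of -1, so at this depth the reads do not separate a 1.5-fold from a 2-fold lower level. The antisense gene Gm45774 shares 432 exon bases with Mt2 and has no entry in the count table. In whole muscle, fewer cells of a type that expresses these genes and less RNA per cell cannot be told apart.

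The split of reads between Mt1 and Mt2 had overlapping intervals in the libraries. Mt1 took 57.4% of the reads of Mt1 and Mt2 together in Cry2flox (343 of 598 reads, Clopper-Pearson 95% interval 53.3 to 61.4) and 58.3% in Cry2scko (172 of 295 reads, 52.4 to 64.0). Their sum was 31.8 CPM in Cry2flox and 17.8 CPM in Cry2scko, a log2 ratio of -0.84 (-1.04 to -0.63). With a fold threshold of 1.5 in place of 2, Mt1 and Mt2 were the 2 members called lower and 0 were called higher, where that rule called 4.35% of all genes lower and 6.56% higher.

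Mt3 (ENSMUSG00000031760, chromosome 8, 94152607 to 94154146), the metallothionein known from neurons, had 13 reads in Cry2flox, or 0.692 CPM, against 17 reads in Cry2scko, or 1.03 CPM. Its log2 ratio of 0.56 had an interval from -0.56 to 1.73, so a difference in Mt3 was not detectable at this depth. Mt3 made up 2.12% of all metallothionein reads in Cry2flox (13 of 612 reads, 1.14 to 3.61) and 5.45% in Cry2scko (17 of 312 reads, 3.21 to 8.58). Mt4, known from stratified epithelia and no member of the set, had 1 read in Cry2flox and 0 in Cry2scko. The exact 95% interval for 0 reads reaches 0.223 CPM in Cry2scko. The 4 genes lie in 1 cluster on the plus strand that spans 43.1 kb, with 5.51 kb between the end of Mt2 and the start of Mt1. The nearest genes past the filter on each side of the cluster were Bbs2 and Nup93. Bbs2, a gene of the primary cilium, had 84 and 59 reads at -0.32 (-0.83 to 0.17). Nup93, a subunit of the nuclear pore, had 208 and 141 reads at -0.38 (-0.70 to -0.06). The intervals of both flanking genes overlapped those of Mt1 and Mt2, and that of Bbs2 included a ratio of 1.

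**Figure D1:**
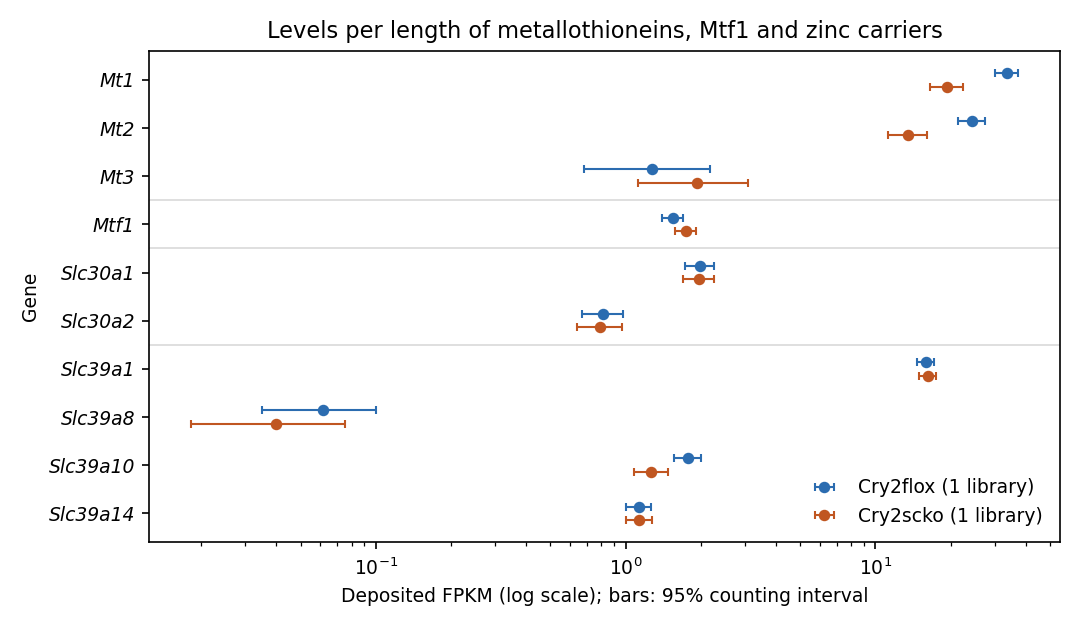
Deposited FPKM (horizontal, log scale) of the 10 genes in Cry2flox (blue) and Cry2scko (orange), 1 library each, with bars for the 95% counting interval. Mt1 lies at 33.6 and 19.4 FPKM and Mt2 at 24.3 and 13.5, while the points of Slc39a1, at 15.9 and 16.2, nearly coincide.

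The sequence in front of Mt1 and Mt2 is shown because both had intervals below 1 and because MTF-1 is known to act through metal response elements there. RefSeq promoter windows on GRCm38.p6 run from 250 bases before to 50 after a start, and 9 of the 10 genes matched, with 11 windows, the exception being Slc39a14. The core of the metal response element was searched as TGCACNC and TGCGCNC on both strands, where matches on opposite strands can share bases. Of the 32851 windows in the table, 25.7% held at least 1 match to either form and 7.11% at least 2. Mt1 had 3 matches, Mt2 had 4, Slc30a1 and Slc30a2 had 2 each, and Mt3 and 1 of the 2 Slc39a8 windows had 1. Mtf1, Slc39a1 and both Slc39a10 windows had 0, which says only that these letters are not in those windows. The 250 bases before the start follow, each 5′ to 3′ on the plus strand, with matches in capitals, for Mt1 at chr8:94178839-94179088, Mt2 at chr8:94172368-94172617 and Slc30a1, a textbook MTF-1 target, at chr1:191906531-191906780.
Mt1: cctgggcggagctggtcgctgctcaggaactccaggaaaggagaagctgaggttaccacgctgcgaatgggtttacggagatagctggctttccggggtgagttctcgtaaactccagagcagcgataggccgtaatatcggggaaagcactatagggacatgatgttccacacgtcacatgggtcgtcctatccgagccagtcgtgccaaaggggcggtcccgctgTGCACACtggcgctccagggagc
Mt2: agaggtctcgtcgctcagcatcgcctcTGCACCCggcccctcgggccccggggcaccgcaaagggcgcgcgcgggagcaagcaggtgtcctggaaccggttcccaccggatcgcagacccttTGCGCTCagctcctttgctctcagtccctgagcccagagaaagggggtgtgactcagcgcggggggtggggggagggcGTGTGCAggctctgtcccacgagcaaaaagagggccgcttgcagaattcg
Slc30a1: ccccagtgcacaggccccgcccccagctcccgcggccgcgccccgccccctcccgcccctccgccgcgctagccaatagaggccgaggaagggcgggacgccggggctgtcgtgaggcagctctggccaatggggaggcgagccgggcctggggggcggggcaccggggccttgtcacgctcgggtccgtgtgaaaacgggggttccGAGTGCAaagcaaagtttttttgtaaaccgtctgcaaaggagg

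More matches follow between the annotated start and the start codon. Where transcription starts in this muscle was not measured, so whether these matches are transcribed or lie in front of the start is not known. From the first base of the window to the base before the start codon, 472 bases for Mt1 and 480 for Mt2, there were 5 matches in front of the start codon of Mt1 and 7 in front of that of Mt2. The annotated leader of Mt1 is the 229 bases from the GENCODE start of its first transcript to the start codon. It held 4 of the 5 matches of Mt1, and 0.155% of 58527 protein-coding transcripts had as many or more in their first 229 bases. The annotated leader of Mt2, 184 bases, held 3, and 0.515% of 58654 transcripts had as many or more over that length. Both shares depend on the annotated starts, and they count every transcript, so a gene with several transcripts enters more than once. The matches downstream of the RefSeq start are shown with 7 bases on each side, capitals marking the core, since they are absent from the stretches above. Those of Mt1 begin at bases 94179091, 94179109, 94179173 and 94179187 of chromosome 8, and those of Mt2 at bases 94172622, 94172676, 94172695 and 94172729.
Mt1, first: ggagctcTGCACTCcgcccga
Mt1, second: cgaaaagTGCGCTCggctctg
Mt1, next: gcctgctGGGTGCAaaccctt
Mt1, last: aacccttTGCGCCCggactcg
Mt2, first: tcgggtcGTGCGCAggcccag
Mt2, second: aaagggcGTGTGCAggcggcg
Mt2, next: cgggggcGCGTGCAtggtgcc
Mt2, last: gagctttTGCGCTCgacccaa

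Of the other motifs searched, the E-box CACGTG, bound by the clock activators CLOCK and BMAL1 and by other factors of the same class, was in 7.15% of all windows and in 1 window of the set, a Slc39a8 start. The antioxidant element TGACNNNGC was in 12.4% of all windows and in those of Mt2, Slc30a1, Slc39a1 and the other Slc39a8 start. The STAT element TTCNNNGAA, in 8.30% of all windows, was at 1 Slc39a10 start. That Slc39a10 window, 46925727 to 46926026 of chromosome 1, lies outside the GENCODE M21 model of the gene, which ends at 46892852. Matches describe the sequence and are not measured binding.

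**Figure D2:**
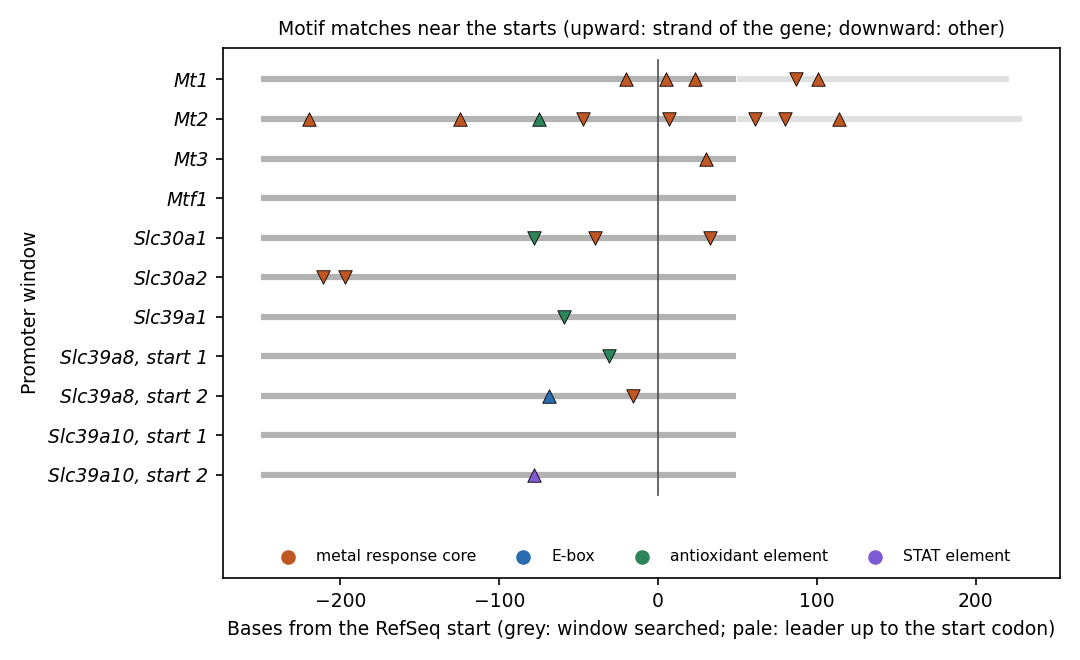
Motif matches in the 11 promoter windows of 9 genes, by distance in bases from the RefSeq start, with the stretch up to the start codon of Mt1 and Mt2 in pale grey. Orange marks the metal response core, blue the E-box, green the antioxidant element and purple the STAT element. Triangles point up for the strand of the gene and down for the other strand. Matches to the metal response core lie on both sides of the annotated starts of Mt1 and Mt2, and Mtf1 has 0 matches to any motif searched.

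Mtf1 (ENSMUSG00000028890, chromosome 4, 124802104 to 124849800, plus strand) had 435 reads in Cry2flox, or 23.2 CPM (21.04 to 25.4), against 426 reads in Cry2scko, or 25.8 CPM (23.4 to 28.3). The intervals of these levels overlapped. Its log2 ratio was 0.15 (-0.04 to 0.35), an interval wholly above those of Mt1 and Mt2. The antisense gene 1110065P20Rik shares 721 exon bases with Mtf1 and had 92 and 86 reads. Together they were at 0.14 (-0.04 to 0.32). These are transcript levels, and the activity of MTF-1, which depends on zinc binding, was not measured.

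Both exporters of the set had intervals that included a ratio of 1. Slc30a1 (ENSMUSG00000037434, chromosome 1, 191906767 to 191913247), the exporter of the plasma membrane, had 222 reads in Cry2flox, or 11.8 CPM (10.3 to 13.5), against 191 reads in Cry2scko, or 11.5 CPM (9.97 to 13.3). Its log2 ratio was -0.03 (-0.32 to 0.25), and this interval did not reach those of Mt1 and Mt2. The part of MTF-1 in the ratios of these genes was not tested. Slc30a2 (ENSMUSG00000028836, chromosome 4, 134343181 to 134354484), which loads zinc into vesicles, had 109 reads in Cry2flox, or 5.80 CPM, against 92 reads in Cry2scko, or 5.56 CPM. Its log2 ratio was -0.06 (-0.48 to 0.35), so differences of up to about these bounds were not detectable at this depth.

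Among the importers of the set, Slc39a10 was the one whose interval lay wholly below a ratio of 1. Slc39a10 (ENSMUSG00000025986, chromosome 1, 46807544 to 46892852, minus strand), a carrier of the plasma membrane, had 264 reads in Cry2flox, or 14.1 CPM (12.4 to 15.9), against 164 reads in Cry2scko, or 9.92 CPM (8.46 to 11.6). The intervals of these levels did not overlap. It was 1.42-fold lower, a log2 ratio of -0.50 (-0.79 to -0.22), and 852 genes (6.64%) had a lower ratio. Slc39a1 (ENSMUSG00000052310, chromosome 3, 90248172 to 90253612), a widely expressed importer of the plasma membrane, had 710 reads in Cry2flox, or 37.8 CPM, against 630 reads in Cry2scko, or 38.1 CPM. Its log2 ratio was 0.01 (-0.15 to 0.17). A pseudogene, Slc39a1-ps, is 97.7% identical to it over 973 bases and had 5 and 4 reads. Slc39a14 (ENSMUSG00000022094, chromosome 14, 70303469 to 70351425), which also carries manganese and iron and is known from muscle wasting in cancer, had 312 reads in Cry2flox, or 16.6 CPM, against 273 reads in Cry2scko, or 16.5 CPM, at -0.01 (-0.25 to 0.23). Slc39a8 (ENSMUSG00000053897, chromosome 3, 135825279 to 135888572), a carrier of zinc, manganese and cadmium, had 16 and 9 reads. Its log2 ratio of -0.61 had an interval from -2.01 to 0.62, so a difference in Slc39a8 was not detectable at this depth.

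**Figure D3:**
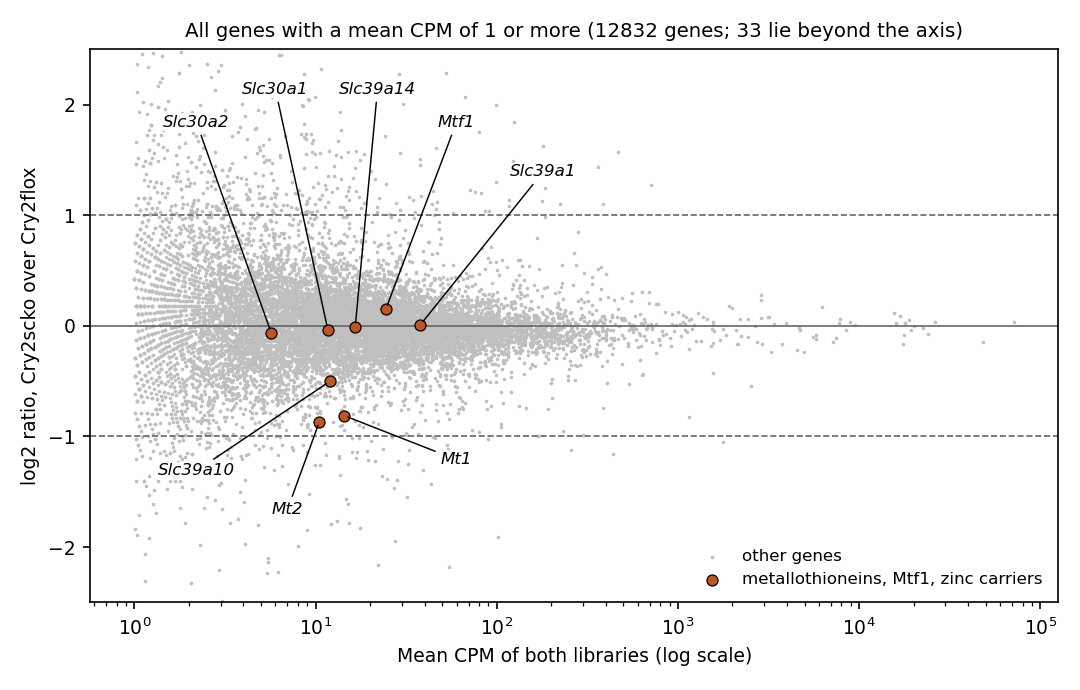
The log2 ratio (vertical) against the mean CPM (horizontal, log scale) of the 12832 genes compared, in grey, with the 8 members past the filter in orange and dashed lines at 2-fold; 33 genes lie beyond the vertical range. Mt1 and Mt2 sit at the lower edge of the cloud, inside the 2-fold line, and 5 members lie within 0.2 of 0.

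Levels between genes were compared per length. In Cry2flox the order by FPKM began with Mt1 at 33.6 (30.1 to 37.3), Mt2 at 24.3 (21.4 to 27.4) and Slc39a1 at 15.9 (14.7 to 17.1), with intervals that did not overlap. In Cry2scko Mt1 was at 19.4 FPKM (16.6 to 22.5), Slc39a1 at 16.2 (14.98 to 17.5) and Mt2 at 13.5 (11.2 to 16.1), and each overlapped its neighbour in that order. Mt1 ranked 725 by FPKM among 17447 genes with a value above 0 in Cry2flox and 1213 among 17408 in Cry2scko. The ranks of Mt2 were 974 and 1724, and those of Slc39a1 were 1486 and 1449. Slc30a1 (1.98 and 1.96 FPKM), Slc39a10 (1.77 and 1.27), Mtf1 (1.54 and 1.74), Mt3 (1.28 and 1.92) and Slc39a14 (1.13 and 1.14) formed a middle group in which neighbours in the Cry2flox order overlapped. Slc30a2 was at 0.812 and 0.789 FPKM and Slc39a8 lowest at 0.0614 and 0.0398. The order, among the top 3 and below them, also depended on the gene length used. The FPKM values imply a length of 540 bases for Mt1, where its merged exons in GENCODE M21 span 1246. As RPKM by merged exon length, Mt2 was at 23.1, Slc39a1 at 16.0 and Mt1 at 14.7 in Cry2flox, and at 12.6, 16.1 and 8.35 in Cry2scko. By that length Mtf1 (2.60), Slc39a10 (2.31) and Slc30a1 (2.25) came next in Cry2flox. Mt3, at 0.649, then lay below Slc30a2, at 1.63.

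The other 19 genes of these families, Mt4 included, held 2 that passed the 2-fold rule, Slc30a7 and Slc39a7. Counting set members too, 7 of 10 exporters were past the filter, of which 1 was higher, 0 lower and 6 neither, and 10 of 14 importers, of which 0 were higher, 1 lower and 9 neither. The rule called 3.37% of all genes compared higher and 1.51% lower. Slc30a7, a carrier into the Golgi, had 61 reads in Cry2flox, or 3.25 CPM, against 156 reads in Cry2scko, or 9.43 CPM, 2.89-fold higher at 1.53 (1.10 to 1.99). Its neighbours were near equal, Dph5 at 0.15 and Extl2 at 0.00. The antisense genes Gm43106 and Gm6649 share exon bases with Slc30a7 and have no entry in the count table. Without a stated strand setting their reads cannot be told apart from its own.

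Slc39a7, which releases zinc from the endoplasmic reticulum and Golgi, had 514 reads in Cry2flox, or 27.4 CPM, against 220 reads in Cry2scko, or 13.3 CPM, 2.06-fold lower at -1.04 (-1.28 to -0.81). Gm20427, on the same strand, shares 2084 exon bases with it and went the other way, with 32 and 164 reads. Summed with Gm20427, the locus had 546 and 384 reads, a log2 ratio of -0.32 (-0.52 to -0.13), so the 2-fold call rested on how the reads were divided between these genes. Slc39a13, a carrier whose loss impairs connective tissue, was at -0.38 (-0.59 to -0.18) with 494 and 334 reads. It shares 215 exon bases with the antisense gene Psmc3, which had 2571 and 2245 reads.

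The most read gene counted as an exporter was Slc30a9, a carrier of mitochondria, with 1727 and 1481 reads at -0.04 (-0.14 to 0.06). It took 57.8% of exporter reads in Cry2flox (56.0 to 59.6) and 53.9% in Cry2scko (52.0 to 55.8). Slc30a4 (0.04), Slc30a5 (0.17) and Slc30a6 (0.43) had intervals that included a ratio of 1, as did Slc39a2 (-0.00), Slc39a3 (0.03), Slc39a6 (-0.24), Slc39a9 (0.18) and Slc39a11 (-0.05). Slc39a4 had 3 and 6 reads and Slc39a12 3 and 8. Slc30a3, Slc30a8, Slc30a10 and Slc39a5 had 0 reads in both libraries. The exact 95% interval for 0 reads reaches 0.196 CPM in Cry2flox and 0.223 CPM in Cry2scko. Summed over the family, exporters were at 159 CPM in Cry2flox and 166 CPM in Cry2scko, a log2 ratio of 0.06 (-0.01 to 0.14). Most reads of this sum were those of Slc30a9, so it is not a measure of zinc leaving the cytosol. Importers were at 164 and 141 CPM, a log2 ratio of -0.21 (-0.29 to -0.14). Without Slc39a7 the importers were at -0.09 (-0.18 to -0.01), and without Slc30a7 the exporters were at 0.01 (-0.07 to 0.09).

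**Figure D4:**
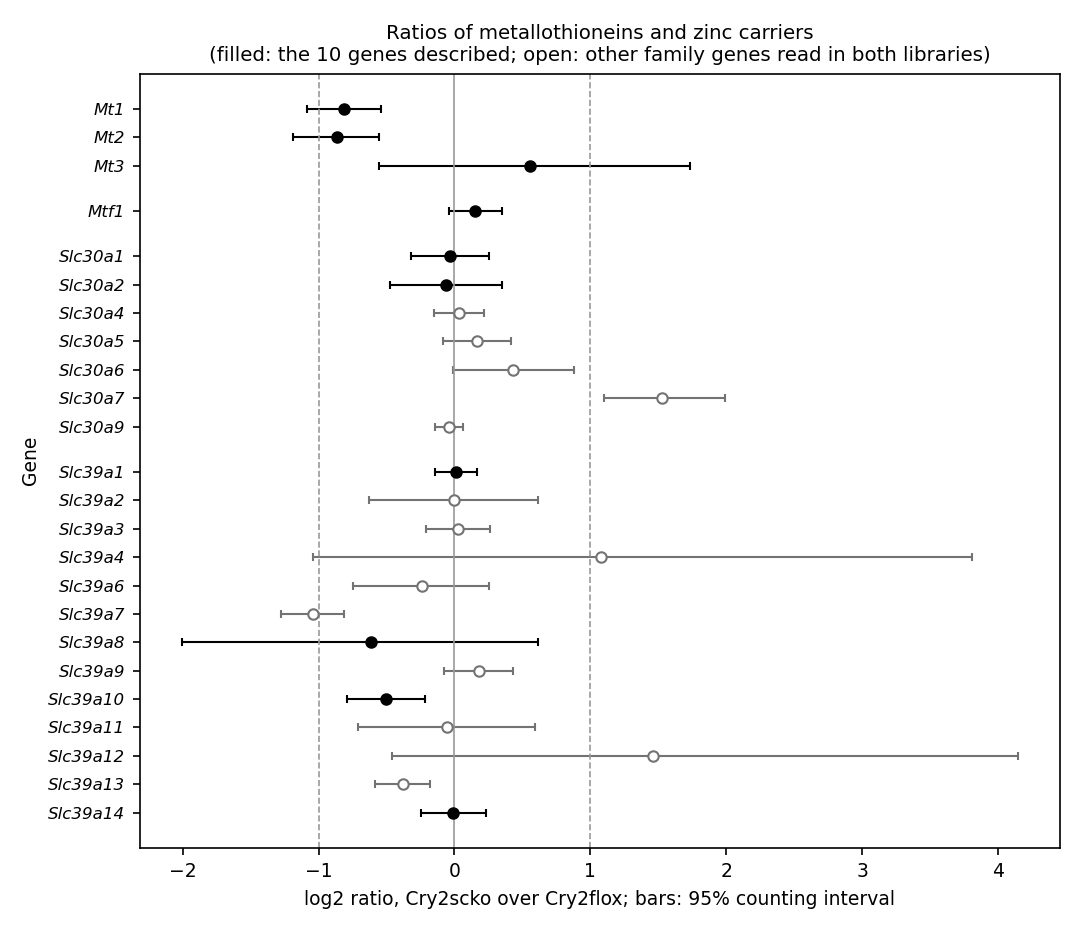
The log2 ratio of Cry2scko over Cry2flox for the metallothioneins, Mtf1 and the zinc carriers read in both libraries, with bars for the 95% counting interval and dashed lines at 2-fold; filled points are the 10 genes of the set. Mt1, Mt2, Slc39a7, Slc39a10 and Slc39a13 lie wholly below 0 and Slc30a7 wholly above it.

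Genes tied to the same metals or stresses were summarised by list, beside the median of -0.00 over all genes. Of 6 other genes linked to MTF-1, 0 passed the rule, and their median log2 ratio was 0.04. Selenow, a muscle selenoprotein, was at 0.20 with 13563 and 13700 reads, Csrp1 at -0.04 and Ndrg1 at 0.11. Pgf, a growth factor of vessels named here after its value was seen, was at -0.80 (-1.51 to -0.15) on 58 and 29 reads. Of 8 copper genes past the filter, 0 passed the rule and the median was -0.02, with the copper and zinc enzyme Sod1 at -0.00 (1626 and 1432 reads) and the copper importer Slc31a1 at -0.03. Cox17, a copper chaperone for cytochrome c oxidase, was at -0.41 (-0.63 to -0.19) on 431 and 286 reads, and Commd1, a regulator of copper export, at 0.10 (-0.11 to 0.31). Of 9 NRF2 response genes past the filter, 0 passed and the median was -0.06, with Prdx1 at -0.31, Txnrd1 at -0.03 and Keap1 at -0.16.

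Of 13 glucocorticoid response genes, 1 was higher, 1 lower and 11 neither, with a median of -0.08. Over all genes compared the rule called 3.37% higher and 1.51% lower. Zbtb16 was 2.32-fold higher (504 and 1032 reads) and Per1, which is also a clock gene, 2.03-fold lower (2250 and 977 reads). Tsc22d3, which encodes the glucocorticoid-induced leucine zipper, was at -0.49 (-0.55 to -0.43), Sgk1 at -0.24 and Klf9 at -0.08. Of 7 STAT3 and acute phase genes past the filter, 2 were higher, 0 lower and 5 neither, with a median of -0.07. The higher ones were Socs3, a feedback inhibitor of cytokine signalling, with 57 and 112 reads at 1.15 (0.68 to 1.64), and the interleukin 6 receptor Il6ra, with 68 and 143 reads at 1.25 (0.83 to 1.69). Il6st, its signalling partner, was at -0.46 and Stat3 at -0.07.

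Markers of cell types other than muscle fibres also differed between the libraries. The medians of the tendon, adipocyte and fibroblast lists lay furthest below 0, and those of the macrophage and endothelial lists were below 0 by less. By the 2-fold rule 3.37% of all genes compared were higher and 1.51% lower. Tendon markers summed to 164 CPM in Cry2flox against 73.3 in Cry2scko, with 4 of 5 past the filter lower (Tnmd, Fmod, Comp and Thbs4) and a median of -1.15. Fibroblast markers summed to 1661 and 1065 CPM, with 1 of 8 lower (Col1a1, at -1.13) and a median of -0.41. Adipocyte markers summed to 315 and 297 CPM, with 1 of 6 past the filter lower (Adipoq, at -1.27) and a median of -0.63. Fabp4, the most read of them with 5213 and 4535 reads, was at -0.02. At 278 and 274 CPM it made up most of both sums, which therefore say little of the other adipocyte markers. Of the 8 adipocyte markers, 7 had a ratio below 1 and 1 above. Over adipocyte markers at a mean CPM of 5 or more the median was -0.38. Lymphocyte markers went the other way, at 38.8 and 98.8 CPM, with 7 of 8 higher. Endothelial (470 and 453 CPM), macrophage (59.9 and 52.1 CPM) and erythroid markers (47.2 and 57.7 CPM) had 0 members past the rule. Their medians were -0.05, -0.10 and 0.13. Of the 7 macrophage markers, 4 had a ratio below 1 and 3 above. Intervals lay wholly below 1 for Cd163 (-0.64), C1qa (-0.45) and Mrc1 (-0.39). Over macrophage markers at a mean CPM of 5 or more the median was -0.39. Of all these markers only Slc4a1, an erythroid gene, had 0 reads in a library, with 0 in Cry2flox and 5 in Cry2scko. The part of these cell types in the lower reads of Mt1, Mt2 and Slc39a10 was not tested.

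**Figure D5:**
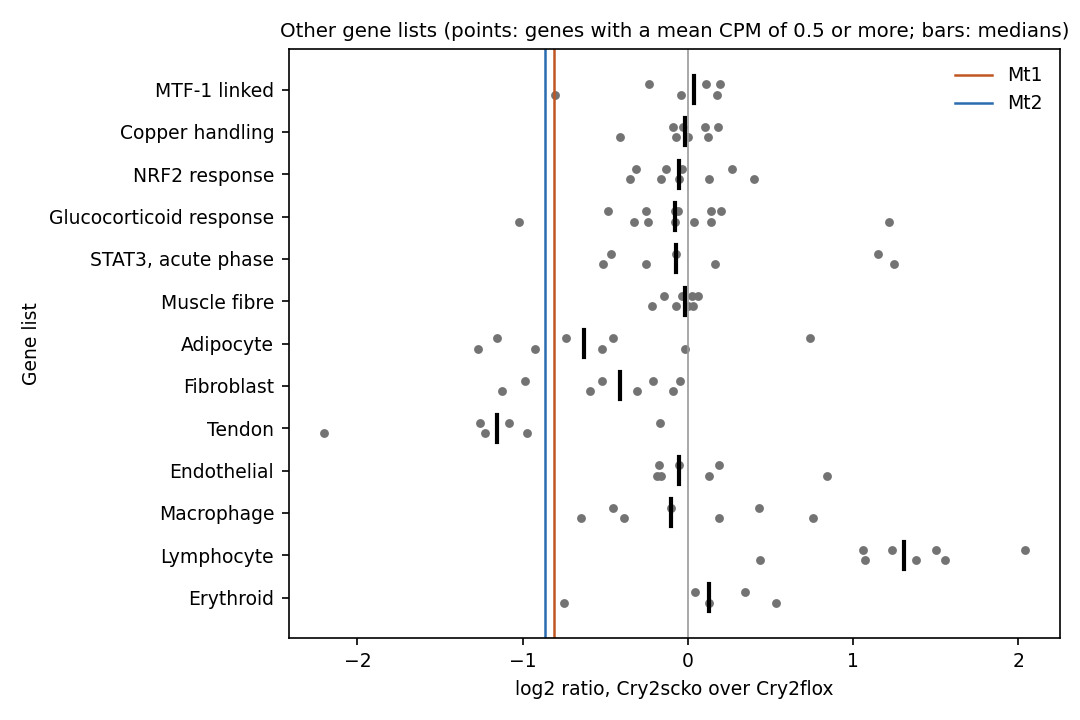
The log2 ratio of each gene with a mean CPM of 0.5 or more in 13 lists, with the median of each list as a black bar and the ratios of Mt1 (orange line) and Mt2 (blue line). The medians of the MTF-1 linked, copper, NRF2, glucocorticoid and STAT3 lists lie between -0.08 and 0.04, the tendon median at -1.15 and the lymphocyte median at 1.31.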

How the data were processed

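Total RNA went into libraries made with the VAHTS Universal V6 kit (Vazyme), per the labels' protocols. CASAVA, HISAT2 2.0.4, StringTie 1.3.0 and the build GRCm38 are named in the submitters' processing notes; the read counter, annotation release and strand setting are not given in the sources used here. The authors deposited whole-number read counts per Ensembl gene, not normalised, per the file headers, and FPKM values for each library, per the file headers. Counts and FPKM implied 1 length per gene, to within 0.1 percent, for 100% of the 16284 genes read in both. Against merged exons in GENCODE M21 that length was 1.19 times as long at the median.

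Of 34745 identifiers, 34344 had a symbol, and those without took 0.0291% (Cry2flox) and 0.0272% (Cry2scko) of reads. All identifiers entered the library sizes. Counts were scaled with TMM factors of 0.993 and 1.01 (edgeR 4.0.16, R 4.3.3). At 1 CPM a gene has 18.8 reads in Cry2flox and 16.5 in Cry2scko. Each count had 0.5 reads added before the log2 ratio, and the interval is the Clopper-Pearson interval of the share of reads in Cry2scko, turned into a ratio. Scaling and calls used the whole table, and no test across animals was possible. Shared exons came from GENCODE M21 and near-identical copies (at least 95 percent over 200 bases) from BLAST 2.17.0. Python 3.11.15, numpy 2.4.6, scipy 1.17.1, pandas 2.3.3 and matplotlib 3.10.9 were used.

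The members and lists were chosen with earlier results of these data known. Genes are named by a written rule: the 10 members, the other carriers, the flanking genes of the cluster, and from each list those past the 2-fold rule and the most read. Some genes under that rule are left undescribed. A comparison of metallothionein proteins was planned but not made, since no protein sequences were used here. The alternatives tried were scaling by total counts, by DESeq2 1.42.0 size factors, or by totals that leave out mitochondrial genes and the top 20 genes, the FPKM values with 0.1 added, 5 reads added, other filters and a 1.5-fold threshold.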

Additional observations from a re-analysis of the deposited data

How the results depend on the processing

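Under 5 other ways of scaling or adding reads, the log2 ratio of Mt1 ran from -0.82 to -0.78, that of Mt2 from -0.87 to -0.84 and that of Slc39a10 from -0.51 to -0.45. Slc39a8 moved most, from -0.62 with DESeq2 size factors to -0.21 with 0.1 added to its FPKM values of 0.0614 and 0.0398. Slc39a14 ran from -0.02 to 0.02, so its sign varied. No member was called under any alternative except the 1.5-fold threshold, which called 2 members lower. That threshold gave 842 genes higher and 558 lower, a mean CPM of 5 or more gave 175 and 76, and no filter gave 789 and 396, against 432 and 194 by the rule used. The FPKM values with 0.1 added gave 116 genes lower; the cause was not tested. With total counts and with FPKM the muscle fibre median moved from -0.02 to 0.0026 and the copper median from -0.02 to 0.0045; total-count scaling shifts every gene alike, and the median of all genes went from -0.0027 to 0.0175 under it. Over all scalings that median lay between -0.01 and 0.03. List medians moved more when only genes at a mean CPM of 5 or more were kept. The macrophage median went from -0.10 to -0.39 and the STAT3 median from -0.07 to 0.05, a change of sign. The erythroid median went from 0.13 to 0.35 and the MTF-1 linked median from 0.04 to 0.11. No paired analysis was possible because each genotype had 1 library, and for the same reason no library could be left out. Depth limits Mt3 and Slc39a8.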
